A study of Mus musculus with 4 samples.

Results

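The genes Axin2, Nkd1, Lef1, Tcf7, Sp5, Dkk1, Notum, Rnf43, Znrf3 and Lgr5 are classic direct targets of Wnt/β-catenin signalling, and most of them feed back on the pathway. They were chosen by name and are 10 of the 21938 protein-coding genes of GENCODE M21 on mm10. Every Smad1 peak within 20 kb of their bodies was taken from all 5 deposited peak lists. The chromatin came from embryoid bodies (EBs), aggregates in which mouse ES cells differentiate; the line, GFP-Bry, has GFP at the Brachyury locus, and its strain label is C57BL/6. On day 3 the EBs were taken apart, and the cells reaggregated for 24 h in 10 µM IWR-1 or in its vehicle, DMSO, until day 4. With 1 Smad1 library and 1 input library for each treatment, nothing that differs between treatments could be checked in a replicate, and p-values are left out.

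Without a Wnt ligand, a cytoplasmic complex built on Axin marks β-catenin for degradation. Ligand bound to Frizzled and LRP receptors halts this, and β-catenin accumulates, enters the nucleus and activates genes together with the TCF/LEF proteins, among them inhibitors of the pathway itself. IWR-1 stabilizes Axin by blocking tankyrases and so keeps β-catenin low. Smad1 is the nuclear effector of BMP signalling, which acts with Wnt to pattern early mesoderm, and it binds GC-rich elements and the shorter Smad box.

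The values are the positions of the peaks and, for MACS, a score that ranks peaks within its list. The depth behind a single peak is unknown, because the lists hold no read counts. DMSO peaks were called by MACS (15927 peaks) and by QESEQ (26070 peaks). A list of 10466 common DMSO sites holds QESEQ peaks that overlap a MACS peak. It does not hold all of them, as only 14877 of the QESEQ peaks had no MACS peak. The labels of the lists go against their contents: the common list and the first MACS list carry the label of the DMSO input, and the DMSO QESEQ list carries that of the IWR-1 input. They were taken as DMSO lists because every common site is an interval of that QESEQ list and overlaps a peak of that MACS list. The IWR-1 QESEQ list (16261 peaks) is filed under the IWR-1 ChIP, which fits its name. The second MACS list (7815 peaks) is filed under the DMSO ChIP. It was taken as the IWR-1 list because its own name gives IWR-1 and the DMSO lists were already accounted for, and each statement on it rests on that choice. An IWR-1 peak that shared 1 bp or more with a DMSO site counted as a call of that site. A missing call means that the caller's threshold was not passed and does not measure the height of a peak. Sites were searched on both strands for the Smad elements GGCGCC and GGAGCC (GC-rich) and GTCTAGAC and CAGACA (Smad boxes), and for CTTTGAT and CTTTGTT, bound by TCF/LEF proteins. The further TCF/LEF variants CTTTGAA and CTTTGTA were noted apart. None of these contains another, and a match describes the sequence only. Sequences shown are from NCBI RefSeq GRCm38.p6, the assembly behind mm10, written 5′ to 3′ on the plus strand.

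Within 20 kb of the 10 genes lay 12 common DMSO sites, at Axin2, Nkd1, Lef1, Tcf7, Sp5, Rnf43 and Lgr5. These are 7 of the 10 genes (95% exact binomial confidence interval 34.8–93.3%, which like the other intervals covers counting error only), where 35.1% of all protein-coding genes had such a site. Long genes meet more sites. Among all protein-coding genes the share rose from 23.3% under 10 kb of length to 60.6% at 100 kb or more. Of the members, 1 of the 3 under 10 kb had a site (Sp5, not Dkk1 or Notum), as did both between 10 and 50 kb (Axin2, Tcf7; 34.9% of all genes of that length) and both between 50 and 100 kb (Nkd1, Rnf43; 46.7%). Among those of 100 kb or more, Lef1 and Lgr5 had sites and Znrf3 had none. Scaled by length, the members' windows held 11.5 common sites per Mb, against 5.75 in the windows of all protein-coding genes. The interval of the members' value (5.95–20.1) starts just above 5.75. It takes sites as independent, although 4 of the 12 lay at Lgr5. A DMSO peak of either caller lay within 20 kb of 9 of the 10 genes, against 64.3% of all protein-coding genes. The exception was Notum. No member had a peak of any list within 1 kb of its annotated gene start, which 7.53% of all protein-coding genes had. The common site closest to a start was centred 3.37 kb upstream of Nkd1.

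**Figure D1:**
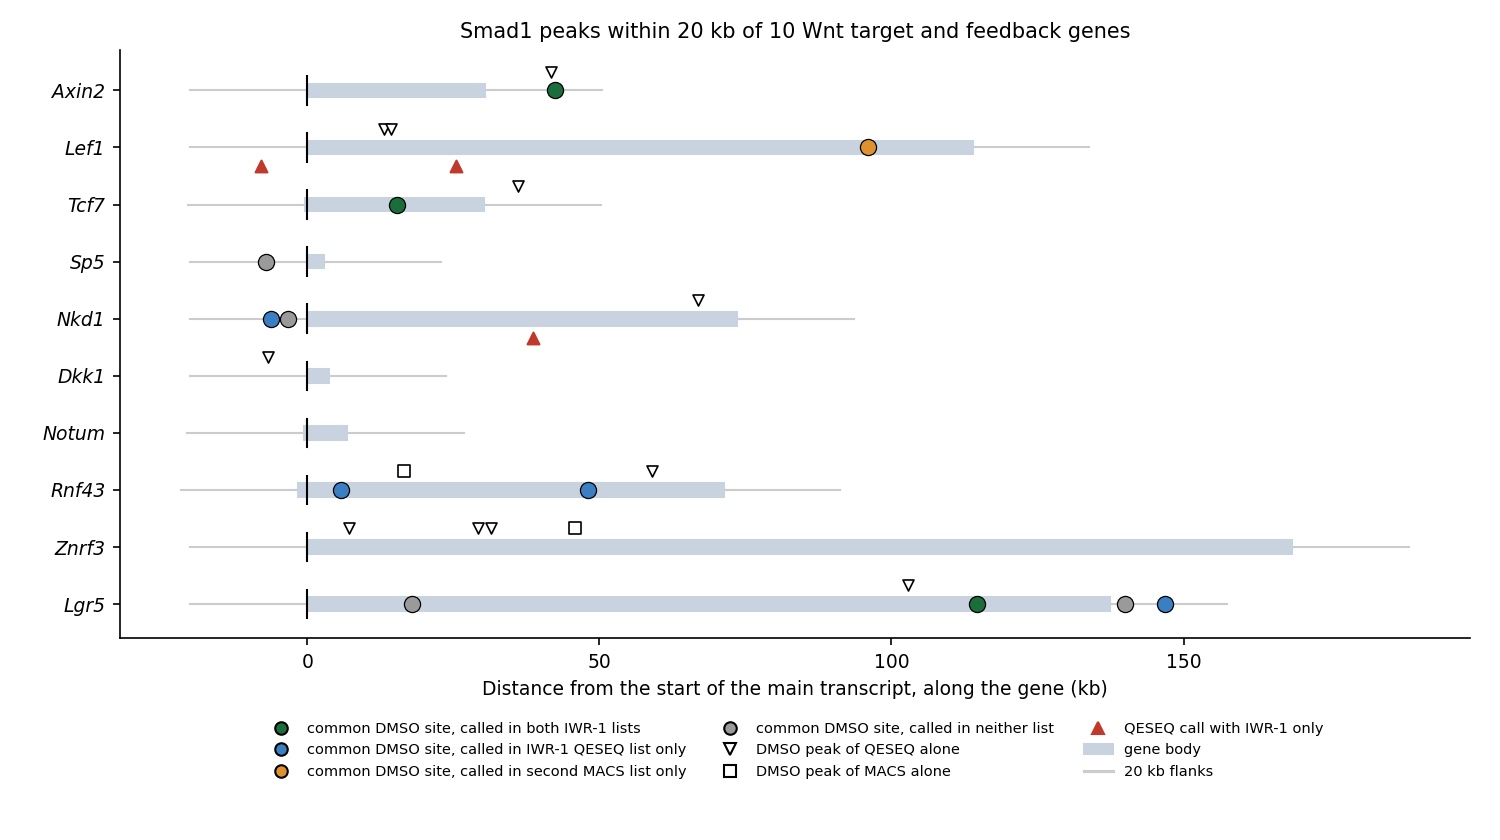
Smad1 peaks of all lists along the 10 genes, drawn by distance in kb from the start of the main transcript (black bar) in the direction of transcription. Common DMSO sites (circles, coloured by their calls with IWR-1) lie in introns of the main transcripts or outside the gene bodies, open symbols are DMSO peaks of a single caller, and Notum has no peak.

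With IWR-1, QESEQ called 7 of the 12 sites (58.3%, 27.7–84.8), where it called 37.0% of all common sites (36.1–38.0). They lay at Axin2, Tcf7, Nkd1, Rnf43 (both of its sites) and Lgr5 (a pair of its sites). The second MACS list had a call at 4 of the 12 (33.3%, 9.92–65.1), at Axin2, Lef1, Tcf7 and Lgr5, against 25.8% of all common sites (25.0–26.7). Both lists had a call at 3 of the 12, against 18.4% of all common sites. Neither had a call at 4 sites, namely those of Sp5, the Nkd1 site nearer to the gene and a pair of the Lgr5 sites (33.3%, 9.92–65.1), against 55.6% of all common sites. The intervals of the members' shares include the shares over all sites, so these counts of calls do not set the genes apart. With 12 sites the intervals are wide, and they do not show that the genes are like the rest either.

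Axin2 and Nkd1 encode intracellular inhibitors, Axin2 as a scaffold of the complex that destroys β-catenin and Nkd1 as a protein that binds Dishevelled. The Axin2 site (chr11:108962630-108963029) lay 11.8 kb beyond the 3′ end of the gene, 42.5 kb downstream of its start. Its DMSO MACS score of 56.12 stood at percentile 23.6 of that list. Its score in the second MACS list was 53.97, percentile 20.3 of that list. It was called in both IWR-1 lists, and the IWR-1 QESEQ peak covered the whole site. It held the Smad box CAGACA at 1 place and, near its centre, a run of 29 A. Upstream of Nkd1 lay a pair of sites. The farther (site 1, chr8:88514768-88515382) was centred 6.28 kb before the gene start, with a score of 54.64 at percentile 18.2 and CAGACA at 2 places. QESEQ called it with IWR-1 over 62.1% of its width, a stretch with 1 of these 2 boxes, and the second MACS list had no call. The nearer (site 2, chr8:88517834-88518140) scored 65.91 at percentile 51.3 and was called in neither IWR-1 list. It was the only common site of the 10 genes with a GC-rich Smad element, GGAGCC. Both stretches shown are on the plus strand of mm10, with the Smad elements in capitals and the runs of A in lower case, from chr11:108962789-108963002 at Axin2 and from chr8:88517887-88517984 at Nkd1 site 2.
Axin2 site: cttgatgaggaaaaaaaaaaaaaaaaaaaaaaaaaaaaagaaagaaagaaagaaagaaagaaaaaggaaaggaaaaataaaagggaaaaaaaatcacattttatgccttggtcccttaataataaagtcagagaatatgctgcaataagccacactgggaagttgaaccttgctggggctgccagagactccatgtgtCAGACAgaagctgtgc
Nkd1 site 2: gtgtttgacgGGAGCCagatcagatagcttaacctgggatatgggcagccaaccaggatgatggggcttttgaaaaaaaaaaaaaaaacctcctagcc

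Nkd1 also had a DMSO peak of QESEQ alone in intron 6 (chr8:88587907-88588397), with GGAGCC and CAGACA and no IWR-1 call. A QESEQ call seen only with IWR-1 lay in its intron 3, 38.7 kb from the start (chr8:88559763-88560322), over the transcript Gm45496. It held GGAGCC and no run of A or T longer than 4. At Axin2, QESEQ alone listed a further DMSO peak 41.7 kb from the start (chr11:108961906-108962241), with no IWR-1 call.

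Lef1 and Tcf7 encode TCF/LEF proteins, the DNA-binding partners of β-catenin. The Lef1 site (chr3:131206265-131206750), in intron 11 and 96.0 kb from the gene start, had the highest score of the 12, 108.71 at percentile 91.3. QESEQ did not call it with IWR-1, although it called 68.2% of all common sites in that top score decile (65.1–71.1). The second MACS list had a call there, as at 72.4% of the sites of that decile. The score of this call, 66.58, stood at percentile 59.0 of the second MACS list. As scores rank peaks within a list only, they are not compared between lists. None of the Smad or TCF/LEF sequences searched lay in the site. The Tcf7 site (chr11:52266895-52267372) had the lowest score of the 12, 53.12 at percentile 12.7. It was called in both IWR-1 lists, at 63.66 in the second MACS list, percentile 52.4 of that list. It lay in intron 2, 15.4 kb from the start of the main transcript, and overlapped exon 1 of the long noncoding RNA Gm26551. The site held CAGACA near a run of 24 A, and 69.7% of its bases were masked as repeats, the highest share among the 12. The stretch shown (plus strand of mm10, chr11:52267139-52267226) has the CAGACA of the Tcf7 site in capitals, beside its run of A.
Tcf7 site: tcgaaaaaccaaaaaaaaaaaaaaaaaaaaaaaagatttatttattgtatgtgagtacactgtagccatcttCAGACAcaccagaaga

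Closer to the start of Lef1, peaks of QESEQ alone lay in intron 3. The nearest, 13.1 kb from the start (chr3:131123277-131123901), was called in both IWR-1 lists, with a score of 78.42 in the second MACS list, above the 66.58 of the common site in the same list. It held none of the elements. Its neighbour 14.3 kb from the start held CAGACA and had no IWR-1 call. QESEQ also made 2 calls at Lef1 with IWR-1 only, 7.89 kb upstream of the start (chr3:131102268-131102888) and in intron 3 at 25.5 kb (chr3:131135711-131136236). The upstream call held CTTTGTT at 2 places and is shown with these in capitals (mm10 plus strand, chr3:131102449-131102683). Both are on the minus strand and so read AACAAAG. At Tcf7, QESEQ alone listed a DMSO peak 5.63 kb beyond the 3′ end (chr11:52246160-52246739), which overlaps the last exon of the neighbouring Skp1a and had no IWR-1 call.
Lef1 upstream call with IWR-1: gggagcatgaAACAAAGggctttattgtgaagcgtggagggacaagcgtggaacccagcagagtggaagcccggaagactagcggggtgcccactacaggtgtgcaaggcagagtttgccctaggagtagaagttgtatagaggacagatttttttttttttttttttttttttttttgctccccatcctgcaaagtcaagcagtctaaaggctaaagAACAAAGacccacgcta

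Sp5, a zinc finger transcription factor and a target of Wnt in many tissues, is a short gene with a site upstream (chr2:70467584-70468061), centred 7.10 kb before its start. The score of 77.68 stood at percentile 72.2, the third highest of the 12, and neither IWR-1 list had a call. The site held no Smad element, and CTTTGTT lay at 4 places within 83 bp, all in the same orientation. Most of the 4 matches stand in closely similar stretches, followed by gcaatctact, gcagtctagt and gcaacctagt, and so need not be separate matches. Of the 10466 common sites, 5 held 4 or more matches of CTTTGAT or CTTTGTT, and 1920 held at least 1 (18.3%). A run of 25 T lay 134 bp from the centre, on the other side of the site. The cluster is shown from chr2:70467633-70467735 of mm10, plus strand, with each match in capitals.
Sp5 site: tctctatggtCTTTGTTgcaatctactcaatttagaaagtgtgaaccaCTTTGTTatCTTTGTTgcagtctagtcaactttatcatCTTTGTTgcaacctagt

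Dkk1 and Notum encode secreted inhibitors, Dkk1 of the LRP coreceptors and Notum of the Wnt ligands themselves, from which it removes the lipid. Neither had a common site within 20 kb. The nearest lay 125 kb from the body of Dkk1 and 180 kb from that of Notum, at percentiles 73.1 and 80.9 of this distance over all protein-coding genes, whose median was 45.5 kb. QESEQ alone listed a DMSO peak 6.77 kb upstream of Dkk1 (chr19:30556194-30556681), with none of the elements, a run of 13 A and no IWR-1 call. Notum had no peak in any list within 20 kb.

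Rnf43 and Znrf3 encode membrane E3 ubiquitin ligases that remove Frizzled receptors from the cell surface. Rnf43 had a pair of common sites in intron 1, both called by QESEQ with IWR-1 and neither in the second MACS list. Site 1 (chr11:87669751-87670222), 5.71 kb from the start of the main transcript, scored 61.70 at percentile 40.8. It held CTTTGTT at 2 places 15 bp from end to end, CTTTGTA at 1 place and a run of 35 T, and no Smad element. Site 2 (chr11:87712001-87712537), 48.0 kb from the start, scored 92.88 at percentile 85.3 and held CAGACA at 1 place. The pair thus differed in score and elements and were alike in their calls. MACS alone listed a DMSO peak between them, 16.5 kb from the start (chr11:87680629-87680881), with a score of 54.10, CAGACA, no run longer than 4 and no IWR-1 call. QESEQ alone listed another in intron 2. Site 1 is shown from its pair of TCF/LEF matches, in capitals and on the minus strand, to its run (chr11:87669929-87670152).
Rnf43 site 1: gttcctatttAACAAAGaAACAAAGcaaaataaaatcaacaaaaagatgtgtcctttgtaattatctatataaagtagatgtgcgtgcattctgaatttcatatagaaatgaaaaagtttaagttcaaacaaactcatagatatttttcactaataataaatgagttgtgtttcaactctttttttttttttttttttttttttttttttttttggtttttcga

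Znrf3, the longest of the 10 genes at 169 kb, had no common site within 20 kb, and the nearest lay 47.1 kb outside its body. All of its DMSO peaks were of single callers and lay in intron 1. MACS alone listed a peak 45.9 kb from the start (chr11:5398797-5399154), with a score of 53.99, and QESEQ called it with IWR-1. QESEQ alone listed 3 peaks without an IWR-1 call, of which the nearest to the start, at 7.22 kb (chr11:5437392-5437870), held CAGACA. The peak at 31.5 kb (chr11:5413041-5413641) held CAGACA at 2 places, CTTTGAT at 1 and CTTTGTT at 1, and no run of A or T longer than 5. Leaving the further variants aside, it was the only DMSO peak near the 10 genes with both Smad and TCF/LEF elements. The stretch with CTTTGAT and CTTTGTT, both on the minus strand, and 1 CAGACA between them is shown in capitals (mm10 plus strand, chr11:5413053-5413205).
Znrf3 peak of QESEQ alone: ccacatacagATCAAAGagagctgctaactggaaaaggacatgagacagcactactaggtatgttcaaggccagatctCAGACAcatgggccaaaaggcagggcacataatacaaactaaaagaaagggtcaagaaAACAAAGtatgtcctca

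Lgr5 encodes a receptor for R-spondins, which strengthen Wnt signalling by holding back the ligases Rnf43 and Znrf3, and marks stem cells of several tissues. It had 4 common sites, the most of the 10 genes. Site 1 (chr10:115440672-115441150) and site 2 (chr10:115447524-115448113) lay 9.16 kb and 2.20 kb beyond the 3′ end of the gene. Site 1 scored 76.52 at percentile 70.6, held CAGACA at 2 places and was called by QESEQ with IWR-1. That IWR-1 peak covered 52.2% of the site, with both Smad boxes and none of its runs, and its own longest run was 4. Site 2 scored 62.78 at percentile 43.7, held CTTTGTA only and had no IWR-1 call. Site 3 (chr10:115472914-115473482), in intron 6 of the main transcript and partly over an exon of a further Lgr5 transcript, scored 67.87 at percentile 55.7. In the second MACS list its score was 72.73, percentile 68.8 of that list. It was called in both IWR-1 lists over the part that holds a run of 50 T and 1 of its 2 CAGACA. Site 4 (chr10:115569641-115569945), in intron 1, scored 53.38 at percentile 13.7, had none of the elements, a run of 41 A and no IWR-1 call. It was centred 0.193 kb upstream of the start of another coding gene, A930009A15Rik. Sites 1, 2 and 3 also lay nearer to the start of another coding gene, Zfc3h1 (56.0, 62.9 and 88.2 kb), as did the Lef1 site to that of Hadh (65.6 kb) and Rnf43 site 2 to that of Supt4a (25.3 kb), so this held for 6 of the 12. Over all protein-coding genes it held for 44.3% of the common sites within 20 kb of a gene, each counted once per gene. A peak of QESEQ alone in intron 4 (chr10:115484667-115485164), without an IWR-1 call, held CTTTGTT and CTTTGAT within 23 bp. The pair of boxes of site 3, on the minus strand (chr10:115473053-115473238), and the TCF/LEF pair of the intron 4 peak, on the plus strand (chr10:115484707-115484749), are shown in capitals as read on the plus strand of mm10.
Lgr5 site 3: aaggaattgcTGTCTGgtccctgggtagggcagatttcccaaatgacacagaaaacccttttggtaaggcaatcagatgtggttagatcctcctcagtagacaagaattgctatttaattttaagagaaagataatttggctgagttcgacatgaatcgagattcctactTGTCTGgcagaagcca
Lgr5 peak of QESEQ alone: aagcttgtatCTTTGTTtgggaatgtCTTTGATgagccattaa

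Across the 12 sites, DMSO scores ran from 53.12 to 108.71, with a median percentile of 47.5, against 52.8 over all common sites. The 7 sites that QESEQ called with IWR-1 had a median percentile of 40.8 and the 5 it did not call 51.3. Over all common sites, the share called by QESEQ varied little over the 6 lowest deciles of the score (26.7–32.5%), was 43.4% in the ninth and 68.2% in the highest. For the second MACS list it went from 13.1% in the lowest decile to 36.9% in the ninth and 72.4% in the highest. Of the 12 sites only that of Lef1 lay in the highest decile, so the members bear little on this order.

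**Figure D2:**
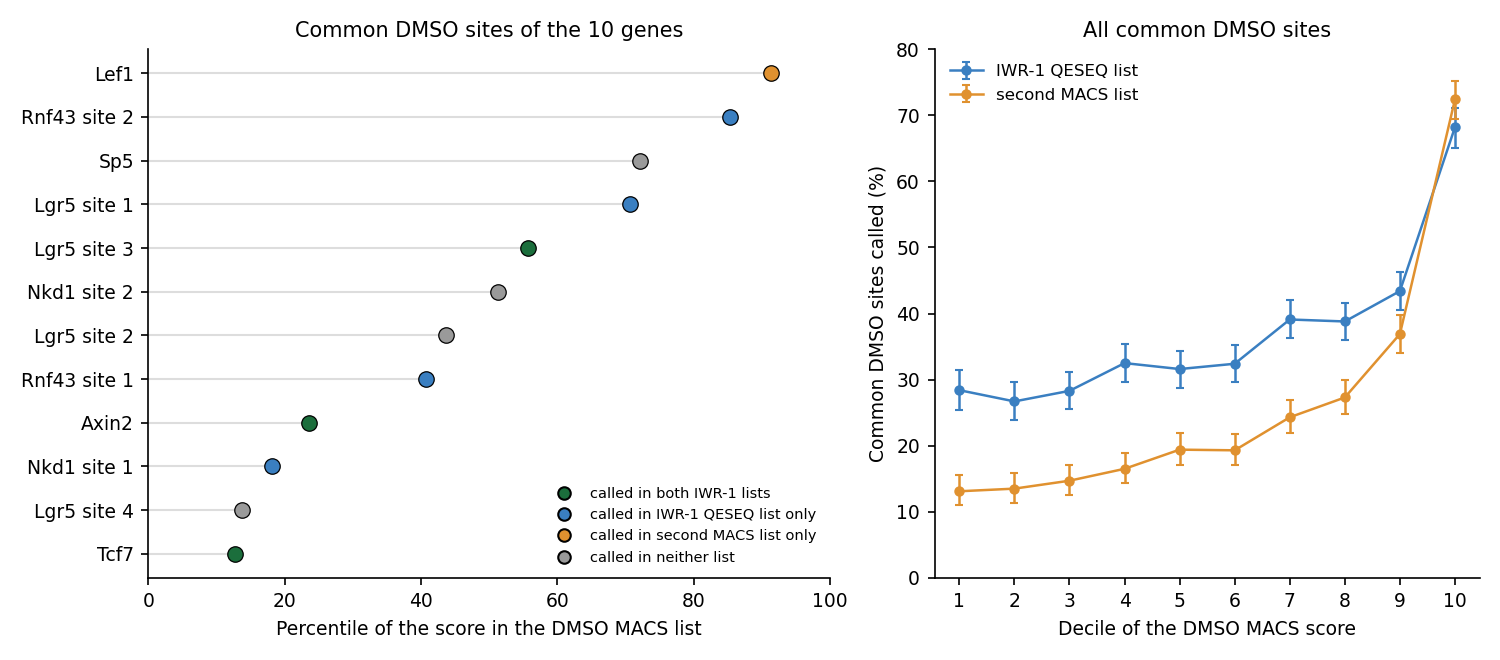
Left, percentile of each of the 12 common DMSO sites by score in the DMSO MACS list, coloured by the calls with IWR-1. Right, the share (%) of all 10466 common sites called in each IWR-1 list by decile of the DMSO score, with 95% exact binomial intervals. Lef1, at percentile 91.3, has no QESEQ call, while Tcf7, at 12.7, is called in both lists.

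A Smad element was found in 7 of the 12 sites (58.3%, 27.7–84.8), against 44.2% of all common sites (43.2–45.1) and 47.0% of windows of the same width 2 kb to either side of all sites. CAGACA accounted for 6 of these 7 (3350 of the 10466 common sites and 35.0% of windows) and GGAGCC for the nearer Nkd1 site (17.4% of all common sites). GGCGCC and GTCTAGAC, rare over all common sites as well (2.66% and 0.411%), were found in none of the 12. A TCF/LEF element was found in 2 of the 12, those of Sp5 and Rnf43 site 1, against 18.3% of all common sites and 19.7% of windows. With the variants CTTTGAA and CTTTGTA, the sites of Axin2 and Tcf7, the nearer one of Nkd1 and sites 1 and 2 of Lgr5 joined them, which made 7 of the 12, against 41.1% of all common sites and 35.2% of windows. Without these variants, no site of the 10 genes held both a Smad and a TCF/LEF element, as 8.19% of all common sites did. With them, the sites of Axin2 and Tcf7, the nearer one of Nkd1 and site 1 of Lgr5 held both, 4 of the 12 (33.3%, 9.92–65.1), against 17.5% of all common sites and 16.3% of windows. A run of at least 7 A or T was in 12 of the 12 sites, from 16 bases at Nkd1 to 50 at Lgr5, against 90.3% of all common sites (89.7–90.9) and 29.8% of windows. None of the 12 overlapped a tRNA gene. The members' sites therefore carried runs of A or T like the common sites as a whole. For Smad and TCF/LEF matches, the wide intervals of the members' shares include those of the windows. The part of the runs in these calls was not tested.

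**Figure D3:**
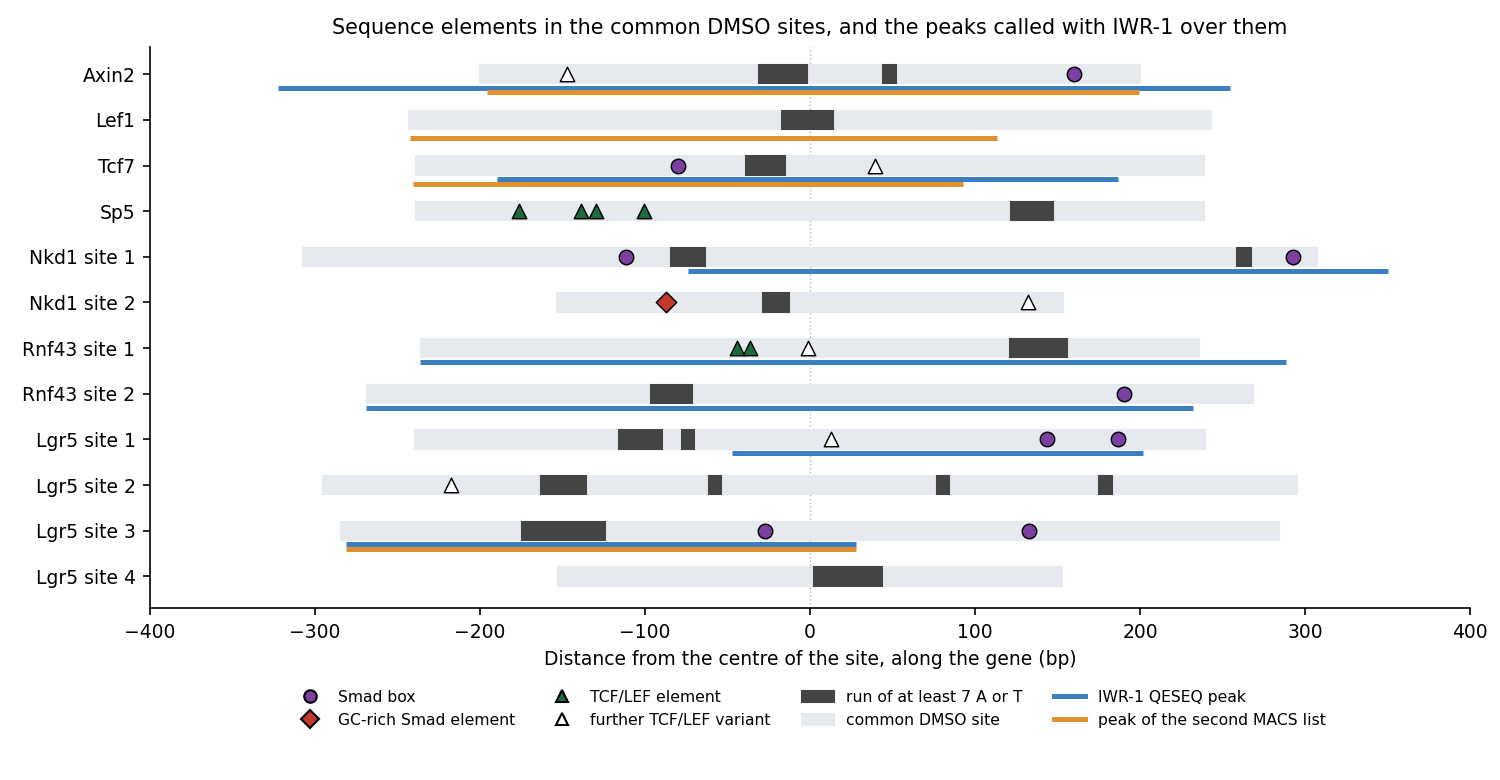
The 12 common DMSO sites (grey bars), aligned on their centres, by distance in bp along the gene. Symbols mark Smad and TCF/LEF elements, with further TCF/LEF variants (CTTTGAA and CTTTGTA) open, dark blocks are runs of at least 7 A or T, and lines below a bar are the peaks called with IWR-1. Each site has a run, and the 4 matches at Sp5 lie on 1 side of its site.

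Of the 7 sites with a Smad element, QESEQ called 6 with IWR-1, against 40.6% of all common sites with such an element. Of the 5 without, it called 1, Rnf43 site 1, against 34.2% of all common sites without one. The second MACS list called 3 of the 7 with a Smad element and 1 of the 5 without, against 27.6% and 24.4% of all such sites. The QESEQ split was noticed in the data and is a description of 12 sites. At the 12 further Wnt targets described below, QESEQ called the 1 site with a Smad element (Ccnd1) and 2 of the 6 without (Myc and Tnfrsf19).

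**Figure D4:**
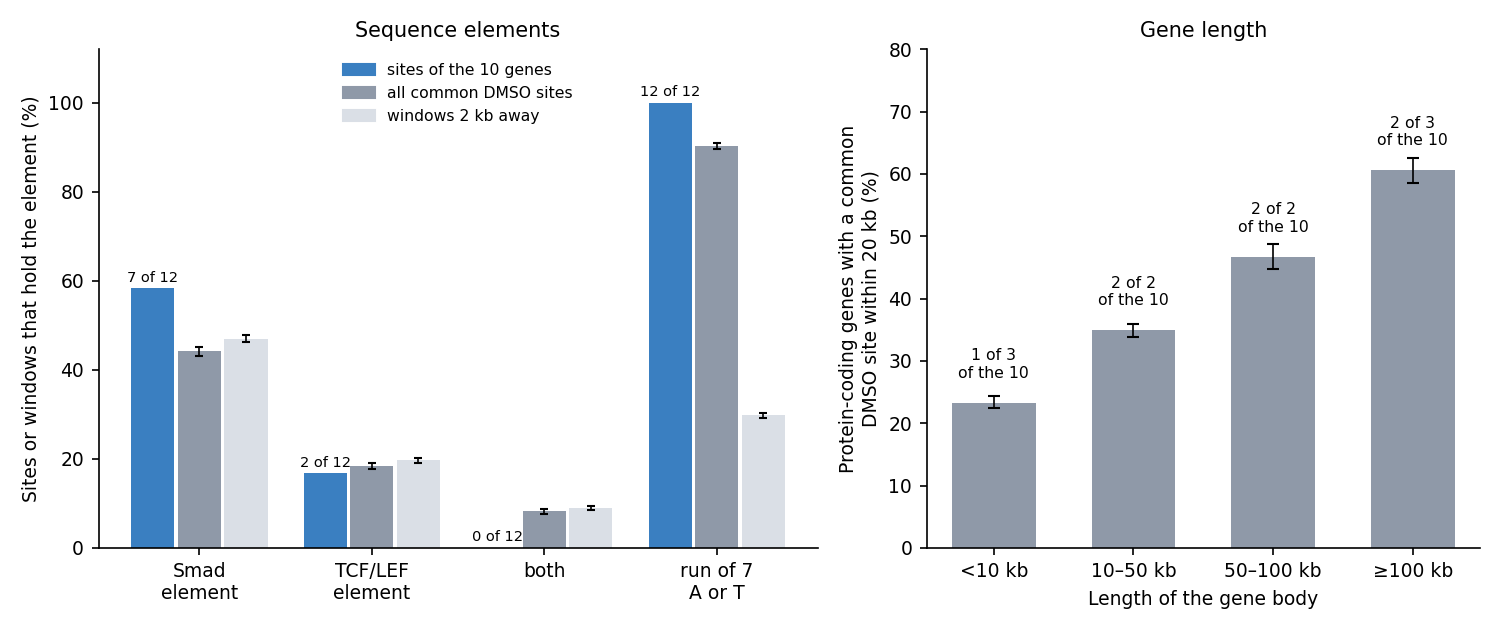
Left, the share (%) of the 12 sites of the 10 genes, of all 10466 common DMSO sites and of windows 2 kb away that hold each kind of element. Right, the share of all protein-coding genes with a common site within 20 kb by length of the gene body, with the members' counts above each bar. Error bars on the grey bars are 95% exact binomial intervals.

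Peaks of single callers with DMSO numbered 13 near the 10 genes, 11 of QESEQ alone over 8 genes and 2 of MACS alone. QESEQ called 1 of the 11 with IWR-1, the Lef1 peak nearest the start, against 17.1% of all such peaks, and 1 of the 2 of MACS alone, in Znrf3, against 19.5%. Of the 11, 7 held a run of at least 7 A or T, against 73.6% of all peaks of QESEQ alone (72.9–74.3). Calls with IWR-1 outside both DMSO lists lay at 2 of the 10 genes for QESEQ (2 calls at Lef1, 1 at Nkd1), against 29.8% of all protein-coding genes, and at none for the second MACS list, against 8.62%.

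Of 12 further genes widely listed as Wnt targets, 5 had a common DMSO site within 20 kb, namely Ccnd1, Myc, Sp8, Tnfrsf19 and Cd44. Over all protein-coding genes 35.1% had such a site. Most of the 12 are under 10 kb long, a length at which 23.3% of all protein-coding genes had one. Tnfrsf19 and Cd44 are between 50 and 100 kb (46.7%). Whether the 12 differ from genes of their length was not tested. Together the 5 genes had 7 sites, of which QESEQ called 3 with IWR-1 (37.0% of all common sites) and the second MACS list 1 (25.8% of all). The site called in both was that of Myc, a regulator of growth, 16.0 kb downstream of its start with a score of 110.57. None of the 7 held both a Smad and a TCF/LEF element, against the 8.19% of all common sites, and with the variants that of Ccnd1 did.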

How the data were processed

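Smad1 ChIP and input DNA from EBs treated with DMSO or IWR-1 were sequenced by the authors, with 1 library each. Per the labels and the study's methods, CASAVA 1.8 was used, single-end reads were aligned to mm10 with Bowtie2 2.1.0, duplicates were removed, and peaks were called with MACS 1.0.1 and QESEQ. The score of each MACS peak is the one the authors deposited, starts at 50 in both MACS lists, and was used to rank peaks within a list only. The QESEQ and common lists hold no score. The depth behind single peaks is unknown.

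The members and lists were chosen with earlier results of these data known. Gene models came from GENCODE M21, with the coding transcript tagged principal, the first-numbered where several were, as the main transcript. Sequence and repeat masking came from NCBI RefSeq GRCm38.p6, the assembly behind mm10. List positions were read as counted from 0 and are given counted from 1. Where several DMSO MACS peaks met a site, the highest score was taken, and windows for comparison lay 2 kb to either side. All 10 genes are named with every common DMSO site. Peaks of single callers are named for the one nearest each gene's main start and where both Smad and TCF/LEF elements occur; others named here were singled out after their values were seen. Of the 12 further Wnt targets, those with a common site are named. Alternatives covered distance, list, score, overlap and motif choices.

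Intervals are exact (Clopper-Pearson, and Poisson for sites per Mb) and cover counting error over sites. Python 3.11.15, numpy 2.4.6, scipy 1.17.1 and matplotlib 3.10.9 were used, and simulated data were used to test how overlaps and motifs are found. Other assays of the study were not analysed here, and some items are not reported here.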

Additional observations from a re-analysis of the deposited data

How the results depend on the processing

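With a single library per treatment, calls cannot be separated from variation between libraries, and 12 sites give wide intervals. No paired analysis was possible because each group has 1 sample and no result comes from a test. Of 43 alternatives, 23 stayed within 1.5 times the main count and 20 did not; the cause was not tested beyond what each setting changes. Confined to gene bodies, 6 common sites remained at 4 genes, and 3 of the 12 further Wnt targets had one (16.8% of all protein-coding genes). Within 10 kb 3 of these further targets had a site, and within 50 kb 10 did (27.3% and 52.1% of all protein-coding genes). Within 50 kb of the 10 genes, single-caller DMSO peaks numbered 21 and calls seen only with IWR-1 6. The 3 common sites between 20 and 50 kb lay near Axin2, Sp5 and Znrf3 (48.8, 31.3 and 47.1 kb outside the bodies). None of these was called with IWR-1, where 55.6% of all common sites were called in neither list. Their DMSO MACS scores, 51.2, 58.0 and 56.7, were below the median of 66.6 over all common sites. All DMSO QESEQ peaks in place of common sites gave 23. At a score of at least 100, 1 site at 1 gene was left, that of Lef1. Requiring a call in both IWR-1 lists left 3 called sites in place of 7. In the central 200 bp, 3 sites held a Smad element and 1 a TCF/LEF element (22.1% and 8.83% of all common sites). With GGCGCC and GGAGCC only, 1 site held a Smad element (18.9% of all), and with CTTTGAA and CTTTGTA added, 7 held a TCF/LEF element. Chosen after seeing the data were 2 further settings. Without the sites that hold 7 A or 7 T in a row, 0 sites and 0 genes remained. With the labels taken as given, the MACS list labelled as the DMSO ChIP gave 5 peaks at 4 genes, of which 4 overlapped an IWR-1 QESEQ peak. The matching shares over all peaks of that list and over all genes were not worked out. Nor were they for the 50 kb counts of single-caller peaks and of calls seen only with IWR-1. These counts therefore do not show whether the 10 genes differ from others.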
